A study of Rattus norvegicus with 9 samples.

Results

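The 10 genes described here encode enzymes and a chaperone that modify collagen after its synthesis. They are the catalytic subunits of prolyl 4-hydroxylase (P4ha1, P4ha2, and P4ha3), the collagen chaperone Hsp47 (Serpinh1), the lysyl hydroxylases (Plod1, Plod2, and Plod3), and 3 of the lysyl oxidases (Lox, Loxl1, and Loxl2). They were looked up by gene symbol among the 35362 genes of the count table, all 10 were found, and all 10 were among the 14770 genes that passed the filter on low counts. The RNA came from adipose-derived mesenchymal stem cells (ASCs), plastic-adherent cells grown from digested fat of Sprague Dawley rats, male and 6 weeks old, and no genetic change or drug is named for any group. By the methods, all rats had been starved before their fat was taken. Cells from subcutaneous fat of the groin (SASCs), from perirenal fat around the kidney (PASCs), and from epididymal fat at the testis (EASCs) were compared at passage 3, with 3 samples in each group. PASCs and EASCs are the visceral groups. The methods describe the replicates as culture wells, 6 in each group, of which 3 per group are analysed here. They do not say whether the wells hold cells of different rats, so that the p-values measure the spread between these samples, which may be technical.

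Collagen chains are hydroxylated in the endoplasmic reticulum before they fold. Prolyl 4-hydroxylation stabilizes the triple helix, Hsp47 binds the folded helix and escorts it toward secretion, and lysyl hydroxylation prepares lysines for sugar attachment and for crosslinks. Outside the cell, the copper-dependent lysyl oxidases convert lysines and hydroxylysines of collagen, and lysines of elastin, to aldehydes that form the crosslinks of fibers. Both classes of hydroxylase need oxygen, iron, oxoglutarate, and ascorbate, and P4ha1, P4ha2, Plod2, and Lox are known targets of the oxygen-regulated transcription factor HIF-1.

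Total counts ranged from 17591916 to 30299032 per sample, 3 counts corresponded to 0.104 to 0.159 CPM (counts scaled by library size and TMM factor), and the counts of the 10 genes ranged from 692 to 71490, far above that level. Ribosomal RNA genes took 13.6% ± 2.81 of the counts in SASCs, 27.6% ± 5.28 in PASCs, and 28.5% ± 12.2 in EASCs (SD, n = 3). All 7 mesenchymal markers examined were above 3 counts in every sample, and their summed level was 4135 to 4262 (SASCs), 3784 to 3959.9 (PASCs), and 4958 to 5027 CPM (EASCs). Single markers differed between the groups. Pdgfra lay between 1517 and 1585 CPM in the SASCs samples, 267 and 298 CPM in PASCs, and 227 and 243 CPM in EASCs (log2 -2.72 in EASCs and -2.47 in PASCs versus SASCs). In the same order of groups, Eng had means of 60.0, 89.8, and 204 CPM (log2 1.77 in EASCs versus SASCs) and Itgb1 had 1046, 1814, and 2951 CPM. The summed level of 5 smooth muscle genes (Myh11, Acta2, Cnn1, Tagln, and Des) lay at 159 to 170.0 CPM (SASCs), 2829 to 3126 CPM (PASCs), and 6317 to 6685 CPM (EASCs). That of 7 mesothelial genes, of which Calb2 was listed at 0 in every sample, was 18.4 to 20.0 CPM, 93.9 to 101 CPM, and 128 to 139 CPM. The sums of 4 adipocyte genes (55.3 to 60.7, 13.5 to 14.4, and 5.64 to 6.20 CPM) and of 4 endothelial genes (39.2 to 41.6, 3.92 to 5.43, and 21.9 to 23.2 CPM) were highest in SASCs, and that of 5 leukocyte genes was highest in EASCs (39.2 to 41.3, 60.4 to 62.5, and 90.6 to 92.1 CPM). These markers moved with the groups in which the 10 genes differed, and their part in the results was not tested. In bulk RNA, fewer cells of a type cannot be told apart from less RNA per cell.

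The comparisons asked how these enzymes differ among stem cells of the 3 fat depots. Most of them were higher in the visceral groups, led by Plod2, Lox, and Loxl2, and Plod1 and Loxl1 were lower. A gene was counted as a differentially expressed gene (DEG) when edgeR's quasi-likelihood test gave an adjusted p-value under 0.05 and the levels differed more than 2-fold. Of the 10 genes, 5 were DEGs in EASCs versus SASCs (P4ha2, P4ha3, Plod2, Lox, and Loxl2, all upregulated), against 27.8% of all genes tested (13.6% upregulated and 14.2% downregulated). In PASCs versus SASCs, 5 were DEGs (P4ha3, Plod2, Lox, and Loxl2 upregulated, Loxl1 downregulated), against 26.9% of all genes tested (12.0% upregulated and 14.9% downregulated). Both comparisons use the same SASCs samples, so that their lists are not independent. The 10 genes were chosen with earlier results of these data known, so that these counts only describe them. With scaling by total counts instead of TMM, 4 were DEGs in EASCs versus SASCs (Plod2, Lox, and Loxl2 up, Loxl1 down), against 32.3% of all genes. The same 5 were DEGs in PASCs versus SASCs, against 30.0%. Between the visceral groups Plod2 was the 1 DEG, upregulated in EASCs, against 7.39% of all genes tested (5.19% upregulated and 2.20% downregulated).

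At an adjusted p-value under 0.05 without a limit on fold change, 8 of the 10 genes were higher and 2 were lower than in SASCs in both visceral groups. Of all genes, 69.7% passed in EASCs (35.5% higher and 34.3% lower) and 69.2% in PASCs (34.6% higher and 34.6% lower), so that passing this test alone sets a gene little apart. Scaling by total counts instead of TMM put the median log2 fold change of all genes at -0.39 in EASCs and -0.33 in PASCs. It gave 5 of the 10 genes higher and 2 lower in EASCs (all genes 15.3% and 46.7%), and 4 higher and 2 lower in PASCs (all genes 16.0% and 42.9%). In EASCs versus PASCs with TMM, 6 passed, all higher in EASCs, against 30.7% of all genes tested (16.1% higher and 14.5% lower). With scaling by total counts 3 passed, all higher in EASCs, where 7.64% of all genes were higher and 7.14% lower. For all 10 genes the samples of each visceral group did not overlap those of SASCs, which was so for 72.1% of all genes in EASCs and 71.6% in PASCs. The samples of EASCs and PASCs did not overlap for 8 of the 10 genes, against 41.2% of all genes. The median log2 fold change of the 10 genes was 0.96 in EASCs versus SASCs, 0.63 in PASCs versus SASCs, and 0.20 in EASCs versus PASCs, where the medians of all genes tested were 0.01, -0.01, and -0.01.

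**Figure D1:**
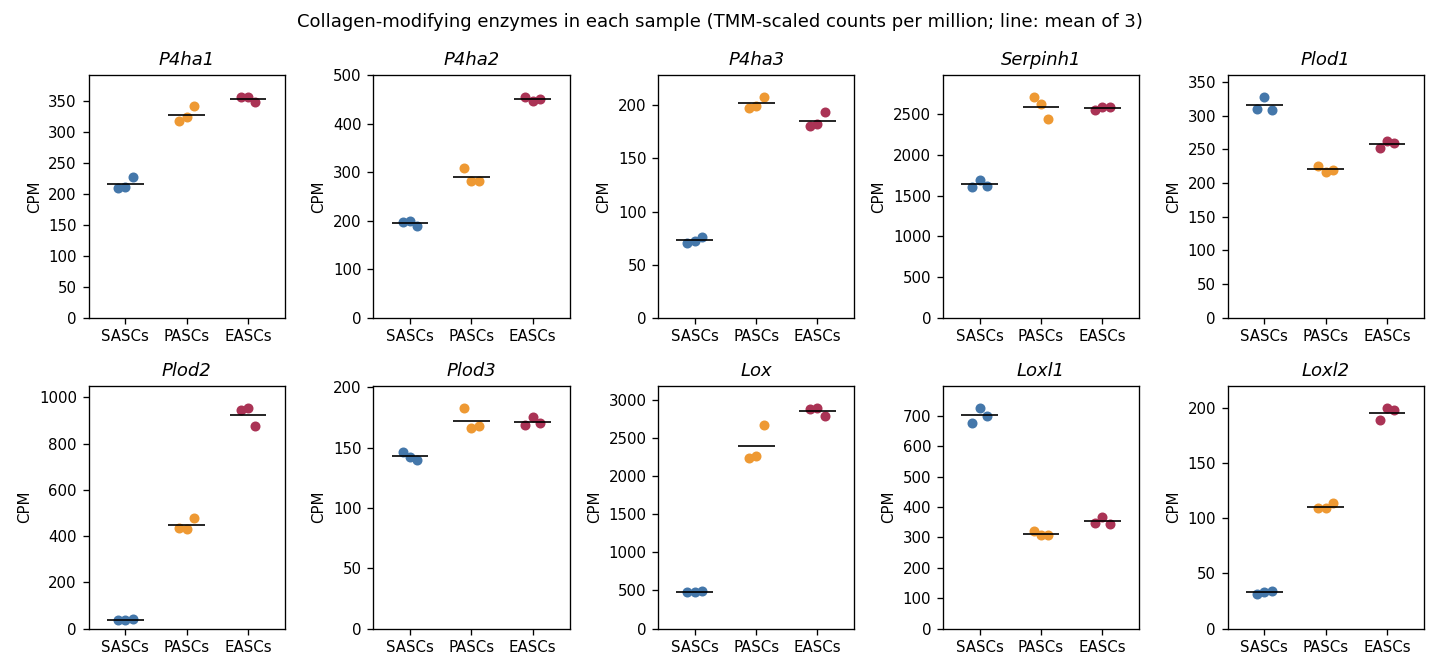
TMM-scaled CPM of the 10 genes (y axis, linear, from 0) in the 9 samples, with 1 point per sample and the mean of 3 samples as a line. SASCs lie apart from both visceral groups in every panel, lowest in 8 panels and highest in the panels of Plod1 and Loxl1.

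**Figure D2:**
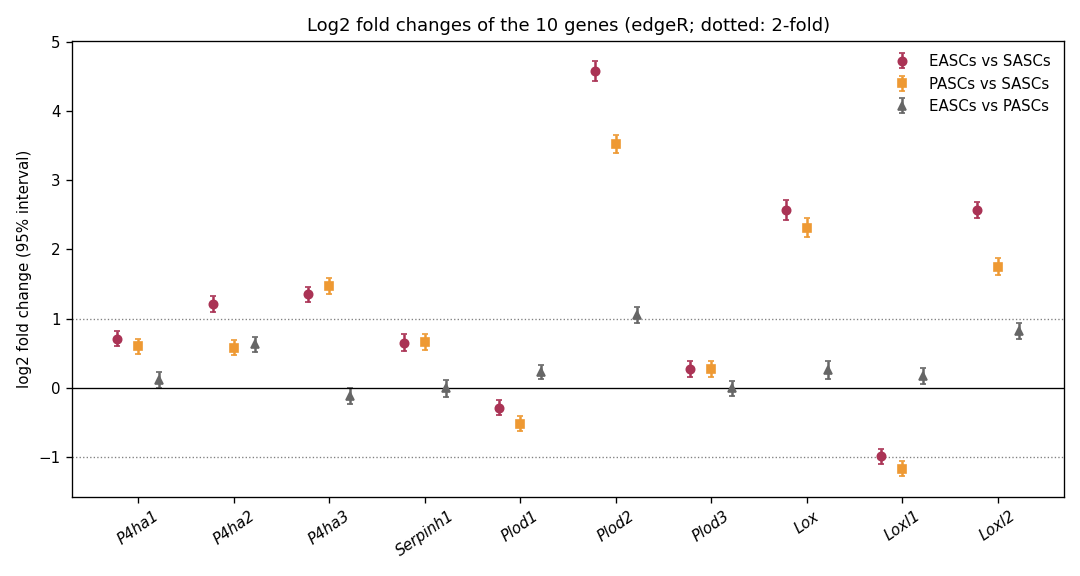
Log2 fold changes of the 10 genes (y axis) with 95% intervals from edgeR, in EASCs versus SASCs, PASCs versus SASCs, and EASCs versus PASCs, with dotted lines at a fold change of 2. Plod2 lies farthest from 0 in all 3 comparisons (4.58, 3.53, and 1.05), and Loxl1 and Plod1 lie below 0 against SASCs.

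Promoters of the 10 genes were searched for motifs because several of these genes are known HIF-1 targets and Serpinh1 is a known target of heat shock factor. Windows from 250 bases before to 50 bases after the start of the RefSeq gene, on the rat assembly GRCr8, were found for 8 of the 10 genes, all but Lox and Loxl2. The letters ACGTG or GCGTG, the core bound by HIF-1, were searched on both strands and stood in 5 of the 8 windows (P4ha1, P4ha2, Plod1, Plod2, and Plod3), while 41.6% of 33469 promoters of the same length held either. Plod1, lower in both visceral groups, held 1 GCGTG, and P4ha3 and Serpinh1, higher in both, held no core. A link between the cores and the direction of change was not tested. ACGTG alone stood in 19.3% of the promoters and in those of P4ha1 (1 match, 11 bases past the start), P4ha2 (2 matches), and Plod2 (2 matches). The heat shock element (the units TTC, GAA, and TTC, each separated by any 2 bases, on either strand) was held by 267 promoters, 0.798% of all. They included those of Serpinh1, 35 bases before the start, and of Plod2, 212 bases before the start on the opposite strand. The 250 bases before the start are given for Plod2, the gene with the largest change, for P4ha2, with 5 HIF-1 cores, for Serpinh1, with the heat shock element close to its start, and for Loxl1, which was lower in the visceral groups and held neither motif. These 4 were picked after their values and motifs were seen. They read 5′ to 3′ on the strand of the gene, in lower case, with capitals for matches of 5 letters to ACGTG or GCGTG and of 13 letters to the heat shock element, on either strand (CACGT and CACGC are the cores on the opposite strand). No printed match overlaps another.
Plod2 (GRCr8 chr8:101964068-101964317, plus strand): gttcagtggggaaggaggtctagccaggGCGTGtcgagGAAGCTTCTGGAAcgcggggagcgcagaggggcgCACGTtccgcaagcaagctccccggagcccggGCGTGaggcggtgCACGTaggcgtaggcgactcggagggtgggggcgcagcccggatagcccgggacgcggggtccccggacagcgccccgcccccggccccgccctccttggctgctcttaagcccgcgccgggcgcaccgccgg
P4ha2 (GRCr8 chr10:38743644-38743893, plus strand): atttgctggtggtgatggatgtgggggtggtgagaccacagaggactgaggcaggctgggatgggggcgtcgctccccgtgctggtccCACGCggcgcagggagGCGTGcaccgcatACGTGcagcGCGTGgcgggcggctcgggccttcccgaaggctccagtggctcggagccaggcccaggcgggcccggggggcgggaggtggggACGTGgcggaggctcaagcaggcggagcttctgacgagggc
Serpinh1 (GRCr8 chr1:163062977-163063226, minus strand): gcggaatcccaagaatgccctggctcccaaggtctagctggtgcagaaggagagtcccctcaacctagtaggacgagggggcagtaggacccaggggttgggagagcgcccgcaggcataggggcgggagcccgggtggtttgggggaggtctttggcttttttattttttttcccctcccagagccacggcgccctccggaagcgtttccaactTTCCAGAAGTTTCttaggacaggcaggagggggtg
Loxl1 (GRCr8 chr8:67612225-67612474, minus strand): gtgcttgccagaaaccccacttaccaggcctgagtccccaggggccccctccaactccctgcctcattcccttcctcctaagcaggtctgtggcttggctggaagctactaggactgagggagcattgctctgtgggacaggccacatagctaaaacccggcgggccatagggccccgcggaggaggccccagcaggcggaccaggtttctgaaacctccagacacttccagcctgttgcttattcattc
A match is a description of letters, no binding was measured, and the absence of a match says nothing of the factor.

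With TMM scaling, the 3 catalytic subunits of prolyl 4-hydroxylase were all higher in both visceral groups than in SASCs, to different degrees. With scaling by total counts, P4ha1 and P4ha2 did not pass an adjusted p-value under 0.05 in PASCs versus SASCs. Over all alternatives of processing, the lowest log2 fold change of P4ha1 was 0.32 in EASCs and 0.28 in PASCs versus SASCs. That of P4ha2 in PASCs versus SASCs was 0.25. P4ha1, the most widely expressed subunit, lies on chromosome 20 (28920616 to 28972576, plus strand, in the rn6 positions of the table, as are the positions that follow). Its level was 209, 211, and 227 CPM in SASCs, 317, 323, and 342 CPM in PASCs, and 356, 356, and 347 CPM in EASCs. The 3 SASCs samples were the lowest and the 3 EASCs samples the highest, without overlap between any groups. Its log2 fold change was 0.71 ± 0.0540 (SE) in EASCs and 0.60 ± 0.0540 in PASCs versus SASCs (edgeR, adjusted p = 4.50e-12 and 1.40e-10), below a fold change of 2. The difference between EASCs and PASCs (log2 0.11, 95% CI -0.00 to 0.22) did not pass the test (adjusted p = 0.134).

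P4ha2, an isoform that forms its own enzyme with the same beta subunit, lies on chromosome 10 (39435227 to 39464134, plus strand). It was at 197, 199, and 188 CPM in SASCs, 309.5, 281, and 282 CPM in PASCs, and 455, 447, and 449.7 CPM in EASCs. The groups formed a ladder from SASCs to PASCs to EASCs without overlap. Against SASCs, the log2 fold change of P4ha2 was 1.21 ± 0.0548 (adjusted p = 4.71e-17) for EASCs, a DEG, and 0.58 ± 0.0545 (adjusted p = 3.47e-10) for PASCs. Scaling by total counts brought P4ha2 in EASCs to 0.81, below the limit for a DEG. EASCs exceeded PASCs by 0.63 ± 0.0540 (adjusted p = 2.94e-10). Its promoter holds the 5 HIF-1 cores marked above.

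P4ha3, the least abundant of the 3 subunits per length, lies on chromosome 1 (165295844 to 165330922, plus strand). It was at 70.8, 71.9, and 75.9 CPM in SASCs, 198, 199.6, and 208 CPM in PASCs, and 181, 182, and 194 CPM in EASCs. Unlike P4ha2, it was highest in PASCs, although the visceral groups lay close to each other. It was a DEG in both comparisons with SASCs, with log2 fold changes of 1.35 ± 0.0550 in EASCs and 1.47 ± 0.0550 in PASCs (adjusted p = 4.10e-18 and 6.10e-19). With scaling by total counts the value in EASCs was 0.95, just below the limit. The difference between EASCs and PASCs (log2 -0.12, 95% CI -0.23 to -0.01) did not pass the test after adjustment (adjusted p = 0.0901).

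The make-up of this family differed between the depots. The share of each subunit in the family's reads per kilobase does not depend on scaling between samples. P4ha1 made up 40.5% ± 1.32 of the reads per kilobase in SASCs, 35.7% ± 1.26 in PASCs, and 31.9% ± 0.559 in EASCs (SD, n = 3), without overlap between the groups. P4ha2 took the largest share in EASCs (47.4% ± 0.327, against 42.6% ± 1.72 in SASCs and 37.0% ± 1.90 in PASCs). P4ha3 took its largest share in PASCs (27.3% ± 0.648, against 16.9% ± 0.403 in SASCs and 20.8% ± 0.772 in EASCs). For the share of P4ha1, each of the 3 comparisons gave p = 0.10 in a two-sided exact permutation test, the smallest p that 3 against 3 samples allow. The summed FPKM of the 3 subunits (TMM-scaled CPM divided by gene length in kilobases) was 183 ± 2.30 in SASCs, 315 ± 5.64 in PASCs, and 381 ± 1.81 in EASCs. P4hb, the beta subunit that all 3 share and a protein disulfide isomerase of its own, had means of 1456, 1342, and 1445 CPM in SASCs, PASCs, and EASCs. It did not pass the test in any comparison (log2 -0.01, 95% CI -0.12 to 0.10, in EASCs and -0.12, 95% CI -0.23 to -0.01, in PASCs versus SASCs, adjusted p = 0.866 and 0.0566).

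Serpinh1, the gene of Hsp47 on chromosome 1 (164301010 to 164308306, minus strand), had the highest FPKM of the 10 genes in every group. It was at 1603, 1692, and 1613 CPM in SASCs, 2711, 2628, and 2434 CPM in PASCs, and 2549, 2591, and 2581 CPM in EASCs. Every visceral sample was above every SASCs sample, and the visceral groups overlapped. The log2 fold change against SASCs was 0.65 ± 0.0581 in EASCs and 0.66 ± 0.0581 in PASCs (adjusted p = 1.08e-10 and 8.11e-11). Over all alternatives of processing its lowest values were 0.26 in EASCs and 0.34 in PASCs. With scaling by total counts it did not pass an adjusted p-value under 0.05 in PASCs versus SASCs. EASCs and PASCs did not differ beyond the spread of the samples (log2 -0.01, 95% CI -0.13 to 0.11, adjusted p = 0.925).

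Of the lysyl hydroxylases, Plod2 had the largest change of the 10 genes against SASCs, and Plod1 and Plod3 had the smallest. Plod2, the hydroxylase of the collagen telopeptides, whose products form the stable crosslinks known from fibrotic tissue, lies on chromosome 8 (99977334 to 100059736, plus strand). It was at 38.7, 37.7, and 39.7 CPM in SASCs, 435, 432, and 476 CPM in PASCs, and 945, 955, and 876 CPM in EASCs. SASCs formed a tight low group, and the lowest EASCs sample lay well above the highest PASCs sample. Plod2 was 23.9-fold higher in EASCs than in SASCs (log2 4.58 ± 0.0665, adjusted p = 6.18e-28) and 11.6-fold higher in PASCs than in SASCs (log2 3.53 ± 0.0641, adjusted p = 9.18e-26). By the size of the log2 fold change it ranked 264 of 14770 genes in EASCs and 469 in PASCs. It was 2.07-fold higher in EASCs than in PASCs (log2 1.05 ± 0.0564, adjusted p = 1.96e-14). This difference was just above the limit for a DEG, and with scaling by total counts it was just below (log2 0.98), so that 0 of the 10 genes were DEGs between the visceral groups with that scaling, against 6.84% of all genes. The smooth muscle genes took the same order of groups, with Acta2 at 55.7, 911, and 2199.9 CPM in SASCs, PASCs, and EASCs, and their part in the difference of Plod2 was not tested.

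Plod1, the hydroxylase of the helical region, lies on chromosome 5 (164720629 to 164747071, minus strand) and took the opposite direction. It was at 310.4, 328, and 309 CPM in SASCs, 226, 216, and 220.1 CPM in PASCs, and 252, 263, and 259.8 CPM in EASCs. SASCs were highest and PASCs lowest, without overlap. The log2 fold change was -0.29 ± 0.0518 in EASCs and -0.52 ± 0.0520 in PASCs versus SASCs (adjusted p = 1.81e-05 and 1.34e-09), and EASCs were above PASCs by 0.22 ± 0.0521 (adjusted p = 0.00134).

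Plod3, which also transfers the sugars of hydroxylysine, lies on chromosome 12 (22716421 to 22726982, minus strand) and changed least. It was at 146, 142, and 139.8 CPM in SASCs, 183, 166, and 168 CPM in PASCs, and 169, 175, and 170.3 CPM in EASCs. The visceral samples lay above those of SASCs by a small margin and overlapped each other. Its log2 fold change was 0.27 ± 0.0533 in both comparisons with SASCs (adjusted p = 8.24e-05 in EASCs and 5.83e-05 in PASCs), and -0.01 (95% CI -0.12 to 0.10) in EASCs versus PASCs (adjusted p = 0.936). The direction against SASCs was lost with scaling by total counts (log2 -0.12 in EASCs and -0.05 in PASCs). The end of Plod3 overlaps Znhit1 on the other strand, which had 8.86% as many counts, and without knowledge of the strand used in counting, reads from the overlap cannot be assigned.

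By share of reads per kilobase, Plod2 went from the least abundant lysyl hydroxylase in SASCs to the most abundant in the visceral groups. Its share was 6.16% ± 0.283 in SASCs, 46.7% ± 1.78 in PASCs, and 62.4% ± 1.19 in EASCs (SD, n = 3), without overlap between the groups. The differences were 56.3 percentage points in EASCs versus SASCs, 40.6 in PASCs versus SASCs, and 15.7 in EASCs versus PASCs, each with p = 0.10 in a two-sided exact permutation test, the smallest possible. Plod1 went from 63.6% ± 0.907 in SASCs to 29.3% ± 0.631 in PASCs and 22.1% ± 0.809 in EASCs. Plod3 went from 30.2% ± 0.736 to 24.0% ± 1.21 and 15.4% ± 0.384. The summed FPKM of the 3 lysyl hydroxylases was 171 ± 3.51 in SASCs, 261 ± 7.11 in PASCs, and 404 ± 12.4 in EASCs.

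**Figure D3:**
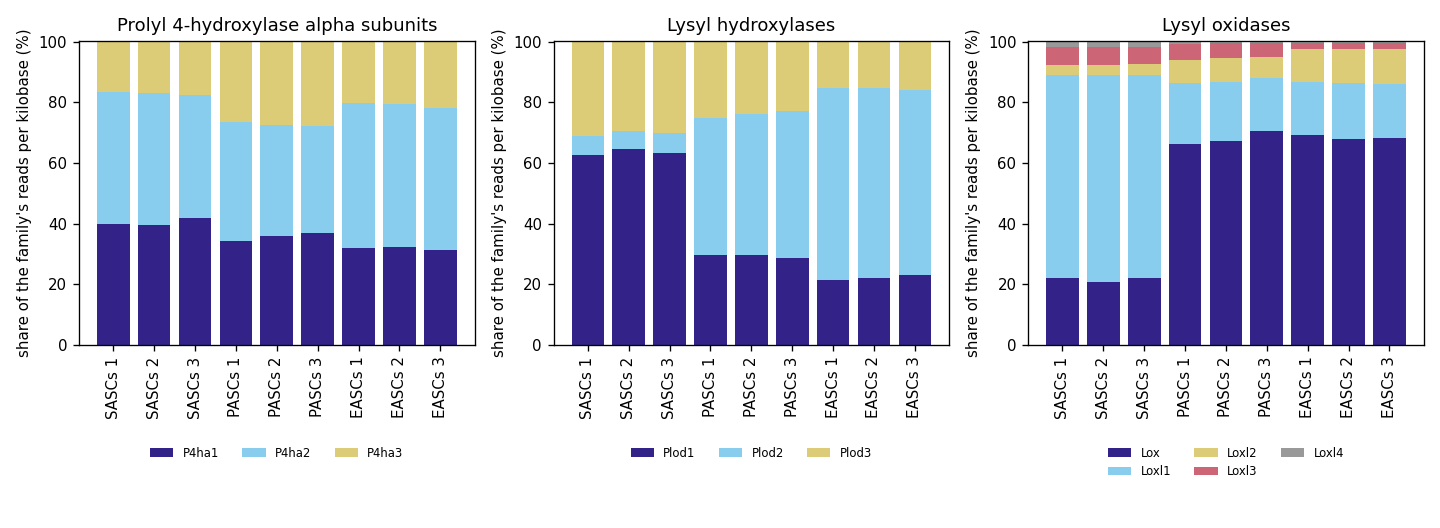
Share of each gene in its family's reads per kilobase (y axis, percent) in each of the 9 samples, for the prolyl 4-hydroxylase subunits, the lysyl hydroxylases, and the 5 lysyl oxidases. Plod2 goes from 6.16% in SASCs to 62.4% in EASCs, Lox from 21.7% to 68.4%, and Loxl1 from 67.3% to 18.0% (means of 3 samples).

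Among the lysyl oxidases, Lox and Loxl2 were higher and Loxl1 was lower in the visceral groups. Lox, the founding member of the family, lies on chromosome 18 (47500320 to 47577819, minus strand). It was at 475, 475, and 493 CPM in SASCs, 2237, 2264, and 2675 CPM in PASCs, and 2876, 2898, and 2785 CPM in EASCs. SASCs lay far below both visceral groups, and the third PASCs sample came close to the lowest EASCs sample. Lox was 5.93-fold higher in EASCs than in SASCs (log2 2.57 ± 0.0675, adjusted p = 2.06e-22) and 4.97-fold higher in PASCs than in SASCs (log2 2.31 ± 0.0669, adjusted p = 1.92e-21). EASCs were above PASCs by a log2 fold change of 0.25 ± 0.0636 (adjusted p = 0.00274). The gene model of Lox in the table spans 77500 bases and contains LOC681584 on the other strand, which had 2.36% as many counts.

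Loxl2, which also acts on collagen IV of basement membranes, lies on chromosome 15 (51276022 to 51365238, plus strand). It was at 31.6, 33.5, and 33.8 CPM in SASCs, 109, 109, and 114 CPM in PASCs, and 189, 200.3, and 198 CPM in EASCs. Like P4ha2 and Plod2, it rose from SASCs to PASCs to EASCs without overlap. It was 5.95-fold higher in EASCs (log2 2.57 ± 0.0583, adjusted p = 6.97e-24) and 3.36-fold higher in PASCs (log2 1.75 ± 0.0581, adjusted p = 4.35e-20) than in SASCs. It was 1.77-fold higher in EASCs than in PASCs (log2 0.82 ± 0.0533, adjusted p = 1.01e-12). LOC103693875 lies within Loxl2 on the same strand and had 7.18% as many counts, and reads of the shared part could have been counted for either.

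Loxl1, the oxidase known for elastin crosslinking, lies on chromosome 8 (63067757 to 63092124, minus strand). It was at 678, 727, and 699.8 CPM in SASCs, 321, 308, and 308 CPM in PASCs, and 346, 368, and 345 CPM in EASCs. All SASCs samples were far above all visceral samples, and PASCs were lowest. The log2 fold change was -1.17 ± 0.0541 in PASCs versus SASCs (adjusted p = 8.26e-17), a DEG. In EASCs versus SASCs it was -0.99 ± 0.0539 (adjusted p = 2.76e-15), just under a fold change of 2, and -1.01 in DESeq2, which called it a DEG, as did edgeR without SASCs replicate 1 or without EASCs replicate 2 (-1.02 each). EASCs were slightly above PASCs (log2 0.17 ± 0.0537, adjusted p = 0.0138).

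With Loxl3 and Loxl4, the other members of the family, the leading lysyl oxidase per length was Loxl1 in SASCs and Lox in the visceral groups. Lox took 21.7% ± 0.678 of the family's reads per kilobase in SASCs, 68.1% ± 2.33 in PASCs, and 68.4% ± 0.645 in EASCs (SD, n = 3). Loxl1 took 67.3% ± 0.674, 19.0% ± 1.5, and 18.0% ± 0.321, and Loxl2 took 3.53% ± 0.0670, 7.50% ± 0.326, and 11.2% ± 0.362. The share of Lox differed by 46.7 percentage points in EASCs and 46.3 in PASCs versus SASCs (p = 0.10 for both in a two-sided exact permutation test). Between EASCs and PASCs the difference was 0.374 percentage points (p = 0.800, exact permutation test). The summed FPKM of the 5 lysyl oxidases was 426 ± 11.0 in SASCs, 674 ± 45.9 in PASCs, and 801 ± 16.4 in EASCs. Loxl4 was a DEG in both comparisons with SASCs (log2 -1.54 ± 0.0808 in EASCs and -1.12 ± 0.0785 in PASCs, adjusted p = 1.32e-15 and 7.32e-13). Loxl3 was lower in EASCs (log2 -0.54 ± 0.0595, adjusted p = 8.35e-09) and higher in PASCs (0.43 ± 0.0579, adjusted p = 2.11e-07) than in SASCs. Loxl3 and Loxl4 share only a short end with Htra2 and R3hcc1l on the other strand. Over their whole length, Htra2 and R3hcc1l had 35.7% and 47.6% as many counts. Reads from the shared ends cannot be assigned, so that the values of Loxl3 and Loxl4 are less certain.

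Compared per length, the order of the 10 genes differed between the depots. In SASCs the FPKM was highest for Serpinh1 (802 ± 23.9, SD, n = 3), followed by Loxl1 (286 ± 9.97), Plod1 (109 ± 3.61), Lox (92.3 ± 1.98), P4ha2 (78.1 ± 2.30), P4ha1 (74.3 ± 3.30), Plod3 (51.8 ± 1.06), P4ha3 (31.1 ± 1.12), Loxl2 (15.0 ± 0.530), and Plod2 (10.5 ± 0.272). The samples of P4ha2 and P4ha1 overlapped, and those of the other neighbors did not. In PASCs the order was Serpinh1 (1269 ± 69.7), Lox (459 ± 47.2), Loxl1 (128 ± 2.98), Plod2 (122 ± 6.59), P4ha2 (117 ± 6.44), P4ha1 (113 ± 4.53), P4ha3 (86.1 ± 2.42), Plod1 (76.3 ± 1.67), Plod3 (62.6 ± 3.39), and Loxl2 (50.5 ± 1.17). From Loxl1 to P4ha1 each gene overlapped the next. In EASCs it was Serpinh1 (1261 ± 10.8), Lox (548 ± 11.5), Plod2 (252 ± 11.8), P4ha2 (180.5 ± 1.65), Loxl1 (144 ± 5.19), P4ha1 (121 ± 1.73), Loxl2 (89.3 ± 2.74), Plod1 (89.1 ± 1.98), P4ha3 (79.2 ± 3.15), and Plod3 (62.3 ± 1.26), where Loxl2 and Plod1 overlapped. Plod2 moved from the last place in SASCs to the third place in EASCs.

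Against SASCs, none of 12 collagen and elastin genes, the substrates, changed as much as Plod2, Lox, and Loxl2, whereas in EASCs versus PASCs Eln (log2 1.45, adjusted p = 1.38e-05) changed more than all 10 genes. Col1a1 and Col1a2, the chains of collagen I, had log2 fold changes of 0.93 ± 0.0764 and 0.82 ± 0.0717 in EASCs, and of 0.84 ± 0.0763 and 0.82 ± 0.0717 in PASCs versus SASCs (adjusted p from 8.05e-11 to 1.72e-10 in PASCs, and 2.30e-11 and 8.23e-11 in EASCs). Col3a1, the chain of collagen III, was higher in PASCs (log2 0.70 ± 0.0655, adjusted p = 3.05e-10) and did not pass the test in EASCs (0.08, 95% CI -0.05 to 0.22, adjusted p = 0.272). Eln, the gene of elastin, was low, with means of 1.91, 1.84, and 5.07 CPM in SASCs, PASCs, and EASCs, and was a DEG in EASCs versus SASCs (log2 1.40 ± 0.228, adjusted p = 5.13e-06). Of the 12, 4 were DEGs in EASCs versus SASCs (Col5a1 and Eln up, Col6a1 and Col6a2 down) and 3 in PASCs versus SASCs (Col5a1 up, Col5a3 and Col6a1 down), with median log2 fold changes of 0.14 and -0.10. These counts stand beside 27.8% and 26.9% of all genes tested. With scaling by total counts, 2 were DEGs in EASCs versus SASCs, Col6a1 and Col6a2, both down, against 32.3% of all genes, and 4 in PASCs versus SASCs (all down), against 30.0%. Those of collagens V and VI are named here after their values were seen.

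Relative to the summed FPKM of Col1a1, Col1a2, and Col3a1, the 10 genes together stood at a log2 ratio of -0.99 ± 0.0788 in SASCs, -1.09 ± 0.137 in PASCs, and -0.78 ± 0.101 in EASCs (SD, n = 3). The difference from SASCs was 0.20 in EASCs and -0.11 in PASCs (two-sided exact permutation test, p = 0.10 and 0.20), and the latter turned to 0.09 without division by gene length, and was -0.17 without PASCs replicate 2 and -0.03 without PASCs replicate 3. This sum was led by Serpinh1, whose ratio to collagen was -1.94 ± 0.0790, -2.06 ± 0.202, and -1.95 ± 0.0875 in SASCs, PASCs, and EASCs. P4ha1 stood at -5.37 ± 0.124, -5.55 ± 0.108, and -5.32 ± 0.109, where the ranges of all 3 groups overlapped one another. The log2 ratio of Plod2 to collagen was -8.19 ± 0.0886, -5.44 ± 0.0806, and -4.27 ± 0.157, and that of Lox was -5.05 ± 0.0913, -3.53 ± 0.0873, and -3.15 ± 0.119. Loxl1 went from -3.42 ± 0.0957 to -5.37 ± 0.142 and -5.08 ± 0.129, and Plod1 from -4.82 ± 0.0749 to -6.12 ± 0.129 and -5.77 ± 0.0901. The table's model of Col1a2 spans 2039649 bases and other genes, so that its count is less certain.

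Other genes of collagen processing did not move as one group. Of 28 genes of folding, export, and trimming of procollagen and of crosslinking (Loxl3 and Loxl4), 26 were in the table and 25 were tested. In EASCs versus SASCs, 6 were DEGs (3 up and 3 down) and the median log2 fold change was -0.01, and in PASCs versus SASCs, 8 were DEGs (4 up and 4 down) with a median of 0.19, against 27.8% and 26.9% of all genes. At an adjusted p-value under 0.05, 11 were higher and 8 lower in EASCs, and 12 were higher and 7 lower in PASCs than in SASCs, against 69.7% and 69.2% of all genes in either direction. With scaling by total counts the split was 5 higher and 13 lower in EASCs, against 15.3% and 46.7% of all genes. In PASCs it was 5 higher and 9 lower, against 16.0% and 42.9% of all genes. In EASCs versus PASCs, 2 were DEGs, against 7.39% of all genes, and 4 were higher and 8 lower at an adjusted p-value under 0.05, against 16.1% and 14.5% of all genes, with a median of -0.05.

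The enzymes that trim procollagen took different directions. Adamts2, the main procollagen N-proteinase, was at 267, 275, and 264 CPM in SASCs, 52.8, 48.4, and 54.2 CPM in PASCs, and 56.3, 61.2, and 63.0 CPM in EASCs. It was lower in both visceral groups without overlap, with log2 fold changes of -2.16 ± 0.0594 in EASCs and -2.37 ± 0.0602 in PASCs (adjusted p = 5.75e-22 and 1.05e-22). The related Adamts14 had means of 7.23 and 7.37 CPM in SASCs and PASCs and of 17.1 CPM in EASCs (log2 1.24 ± 0.112 versus SASCs and 1.21 ± 0.112 versus PASCs, adjusted p = 1.52e-10 and 1.39e-09). Adamts3 had 0 to 3 counts in the SASCs samples, 5 to 11 in PASCs, and 21 to 30 in EASCs. It was called a DEG against SASCs (fitted log2 3.61, 95% CI 2.30 to 4.93, in EASCs, adjusted p = 1.58e-05), a value that rests on counts near the limit of detection.

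Bmp1, the procollagen C-proteinase that also activates Lox, was lower in both visceral groups (log2 -0.74 ± 0.0553 in EASCs and -1.05 ± 0.0561 in PASCs, adjusted p = 2.91e-12 and 1.88e-15), opposite to Lox. Tmem38b, a cation channel of the endoplasmic reticulum that collagen folding depends on, had means of 38.3, 9.67, and 11.0 CPM in SASCs, PASCs, and EASCs, and its log2 fold change was -1.99 ± 0.0957 for PASCs versus SASCs (adjusted p = 1.78e-16). Leprel1 (P3h2), a prolyl 3-hydroxylase, was close to the limit of detection, with 0 to 5 counts in SASCs and 10 to 20 in the visceral samples, and was called a DEG in both comparisons (log2 2.13 ± 0.647 in EASCs and 2.45 ± 0.629 in PASCs, adjusted p = 0.00503 and 0.00118).

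**Figure D4:**
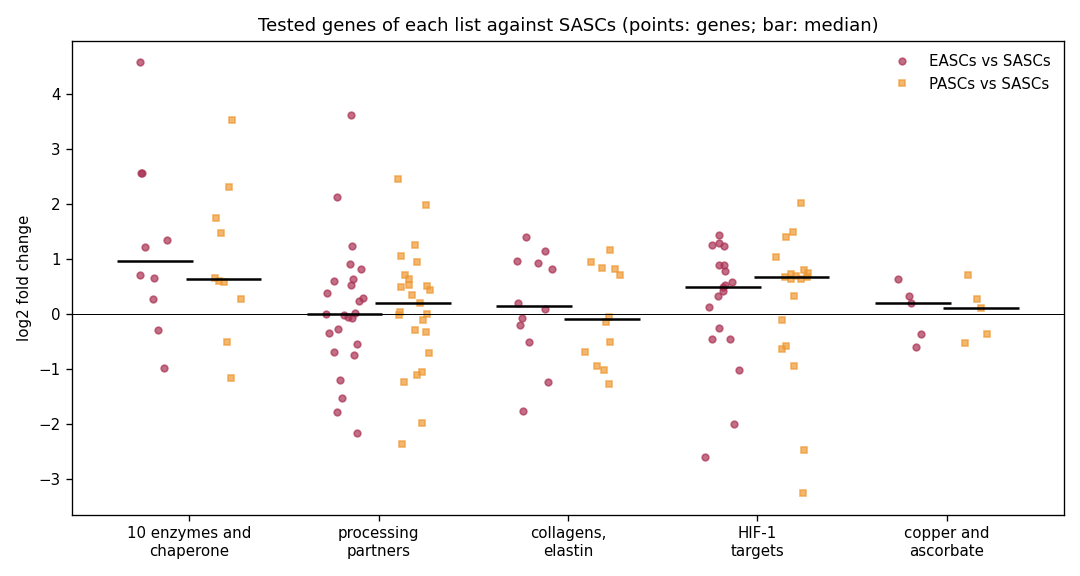
Log2 fold changes against SASCs (y axis) of the tested genes of 5 lists, with 1 point per gene and the median as a bar, in EASCs (circles) and PASCs (squares). The medians of the 10 genes are 0.96 and 0.63, those of the processing partners -0.01 and 0.19, and those of the collagens and elastin 0.14 and -0.10.

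HIF-1 targets outside the 10 genes were examined because P4ha1, P4ha2, Plod2, and Lox are known targets. All 19 were tested, with 7 DEGs in EASCs versus SASCs (4 up and 3 down, median log2 0.48) and 6 in PASCs versus SASCs (4 up and 2 down, median 0.67). These counts stand beside 27.8% and 26.9% of all genes. With scaling by total counts, 3 were DEGs in EASCs versus SASCs, all down, and 6 in PASCs versus SASCs (3 up and 3 down), against 32.3% and 30.0% of all genes. At an adjusted p-value under 0.05 that scaling gave 6 higher and 6 lower in EASCs, against 15.3% and 46.7% of all genes. In PASCs it gave 7 higher and 6 lower, against 16.0% and 42.9% of all genes. With TMM, 12 targets were higher and 6 lower in EASCs, and 11 were higher and 5 lower in PASCs (of all genes, 35.5% and 34.3% in EASCs and 34.6% each in PASCs), although the 2 with the largest log2 fold changes by size, Adm and Egln3, were lower. Adm, the gene of adrenomedullin, had log2 fold changes of -2.61 ± 0.0566 in EASCs and -3.26 ± 0.0587 in PASCs (adjusted p = 2.66e-24 and 7.97e-26). Egln3, which hydroxylates the factor itself, had -2.01 ± 0.0761 and -2.48 ± 0.0788 (adjusted p = 8.30e-19 and 1.64e-20). In EASCs versus PASCs, 4 of the 19 targets were higher and 8 were lower at an adjusted p-value under 0.05, with log2 fold changes from -0.72 to 0.76 and a median of -0.13, against 16.1% higher and 14.5% lower of all genes.

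Of 6 genes of copper and ascorbate transport, 5 were tested, with log2 fold changes from -0.60 to 0.64 in EASCs and from -0.53 to 0.71 in PASCs versus SASCs. The upper end of both ranges was Atp7b, with 8 to 35 counts per sample, which did not pass the test (adjusted p = 0.172 and 0.123) and overlaps Alg11, a gene with far more counts. Atp7a, the copper pump that loads the lysyl oxidases, had means of 55.0, 38.3, and 36.3 CPM in SASCs, PASCs, and EASCs. It was lower in both visceral groups (log2 -0.60 ± 0.0754 in EASCs and -0.53 ± 0.0752 in PASCs, adjusted p = 7.84e-08 and 6.48e-07), as was Slc23a2, an ascorbate transporter (log2 -0.37 and -0.36, adjusted p = 2.73e-05 and 3.88e-05). Atox1, the copper chaperone that delivers to Atp7a, was higher in both (log2 0.33 and 0.27, adjusted p = 0.00363 and 0.0162), and Slc31a1, a copper importer, was higher in EASCs (0.19, adjusted p = 0.0272) and at 0.11 in PASCs (adjusted p = 0.204). With scaling by total counts Atox1 and Slc31a1 turned to values from -0.23 to -0.06 that did not pass the test. Atp7a overlaps LOC100363531 on the other strand, which had 35.2% as many counts, so that its value is less certain. Slc31a1 overlaps Fkbp15 on the other strand, which had 74.3% as many counts, and its value is less certain too.

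The genes whose levels followed Plod2 most closely over the 9 samples, among 8959 tested genes with a mean log2 CPM of at least 3, were Acta2 (smooth muscle actin, Pearson r = 0.9994), Tgfa (transforming growth factor alpha, r = 0.9994), and Cryab (a small heat shock protein, r = 0.9992). Tgfa was at 21.5, 89.4, and 135 CPM and Cryab at 25.2, 258, and 478 CPM in SASCs, PASCs, and EASCs. The 9 samples form 3 groups of 3, all genes share the same libraries and scaling, and Acta2 has near-identical paralogs among which reads could have been split, so that these values only describe a likeness.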

How the data were processed

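RNA of 9 samples was sequenced as paired-end reads, which the authors trimmed with cutadapt and FastX-Toolkit and aligned with TopHat. The authors deposited whole-number counts per gene without normalization. The counting tool and its use of strand are not given in the sources used here. The labels name rn5 and the methods rn6, and the positions in the table fit rn6.

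Samples were grouped by their labels. Counts were scaled by TMM (factors 0.740 to 1.23), filtered with filterByExpr, and fitted in edgeR 4.0.16 (R 4.3.3) by the quasi-likelihood test in one model of 3 groups without a block, with Benjamini-Hochberg adjustment over 14770 genes. The SE of a log2 fold change is its size divided by the square root of F. FPKM was computed from TMM-scaled CPM and the gene lengths of the table. Shares and ratios were compared by two-sided exact permutation tests. Promoters were taken from RefSeq on GRCr8, which is not the build of the counts.

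The 10 genes and all lists were chosen with earlier results of these data known. The named genes were the 10 genes, at most 3 collagen processing DEGs with the largest change in each comparison with Loxl3, Loxl4, P4hb, and Bmp1, the 4 substrates Col1a1, Col1a2, Col3a1, and Eln, at most 2 HIF-1 targets with the largest change, Atp7a, and the 3 genes most correlated with Plod2. Of 200 genes changed in simulated counts of EASCs versus SASCs (14399 genes), 200 were recovered, and 0 unchanged genes were called. Recovery of genes close to a fold change of 2, or with low counts, was not tested. Replicates differed by more than counting noise (chi-square per degree of freedom from 6.15 to 281). Alternatives were DESeq2 1.42.0, no filter, only the groups compared, other scalings, the replicate block, the threshold, each sample left out, and, chosen after the data were examined, Col1a2 left out of the collagen sum. Intervals cover the spread of the samples, and 3 counts cover counting error only.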

Additional observations from a re-analysis of the deposited data

Results flagged for a closer look

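With TMM scaling, the effect against SASCs differed between the visceral groups for 3 genes of the lists, going down in one group and up in the other. They were picked for opposite signs with an adjusted p-value under 0.05 in all 3 comparisons, so that their p-values are part of the rule. The share of all genes that meet it was not counted. The rule was not repeated with scaling by total counts, which put the median of all genes at -0.39 in EASCs and -0.33 in PASCs versus SASCs. Loxl3, a lysyl oxidase, changed against SASCs by a log2 fold change of -0.54 (EASCs) and 0.43 (PASCs). The difference between EASCs and PASCs was -0.97 (edgeR, adjusted p = 2.86e-13), and all 3 EASCs samples (56.6 to 62.3 CPM) were below all 3 PASCs samples (113 to 122 CPM). Col4a1, a chain of basement membrane collagen IV, had 0.20 in EASCs and -0.52 in PASCs versus SASCs, and a difference of 0.71 between them (edgeR, adjusted p = 6.31e-10). The 0.20 is smaller in size than the median of -0.39 named above, so that this direction may rest on the scaling. Thy1, a mesenchymal surface marker, had means of 545, 777, and 405 CPM in SASCs, PASCs, and EASCs, with -0.43 in EASCs and 0.51 in PASCs versus SASCs and a difference of -0.94 (edgeR, adjusted p = 6.49e-14). Groups of 3 samples are too small to be searched for outlying samples.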

How the results depend on the processing

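With adjusted p under 0.05 at any fold change, the numbers of genes called in EASCs versus SASCs, PASCs versus SASCs, and EASCs versus PASCs were 10, 10, and 6 of the 10 enzymes and chaperone, 19, 19, and 12 of the 25 processing partners, 10, 10, and 7 of the 12 substrates, and 18, 16, and 12 of the 19 HIF-1 targets, against 69.7%, 69.2%, and 30.7% of all genes. Scaling by total counts put the median of all genes at -0.39, -0.33, and -0.08. It left 2 substrates and 3 HIF-1 targets, all down, as DEGs in EASCs versus SASCs, against 32.3% of all genes, and 0 of the 10 genes in EASCs versus PASCs, against 6.84% of all genes, where Plod2 fell just under a fold change of 2 (0.98). It turned Plod3 to -0.12 in EASCs and -0.05 in PASCs versus SASCs, brought P4ha2 (0.81) and P4ha3 (0.95) in EASCs below a fold change of 2, and brought Loxl1 in EASCs (-1.38) above it. The cause was not tested. Loxl1 in EASCs versus SASCs also passed a fold change of 2 in DESeq2 (-1.01), without the first SASCs sample (-1.02), and without the second EASCs sample (-1.02). In EASCs versus PASCs, values near 0 changed sign, namely Plod3 (0.02) and Serpinh1 (0.02) with upper quartile scaling, Plod3 without PASCs replicate 1 (0.04), EASCs replicate 1 (0.00), or EASCs replicate 3 (0.00) in a range from -0.03 to 0.04 with each sample left out, and Serpinh1 without PASCs replicate 1 (0.02) or 2 (0.00). The difference in the share of Lox in EASCs versus PASCs ranged from -0.552 (without PASCs replicate 1) to 1.68 with each sample left out, and was -0.00955 without PASCs replicate 2. The number of processing DEGs in EASCs versus PASCs ranged from 1 to 2, with 1 when PASCs replicate 1 or 2 was left out. The ratio to collagen in PASCs versus SASCs was 0.09 when counts were not divided by gene length.

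The replicate numbers did not pair the samples (correlations of same-numbered deviations from -0.0348 to 0.0380). In a fit with the replicate block, DEGs numbered 4061, 3944, and 1067 of all genes against 4105, 3979, and 1091 without it, the 10 genes again gave 5, 5, and 1 DEGs, and no DEG call on them, on the processing partners, on the substrates, or on the HIF-1 targets changed. Bias by GC content was not tested, and the build, strand, and origin of the samples limit the values as stated with them.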
